A study of Rattus norvegicus with 3 samples.

Results

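Wnt ligands, their receptors, their secreted antagonists and the main downstream proteins were followed in fetal Wistar rat cardiomyocytes kept in 3 media. Members were the probe sets whose single annotated symbol began with Wnt, Fzd, Sfrp, Dkk, Rspo or Porcn, together with Lrp5, Lrp6, Wif1, Frzb, Axin1, Axin2, Ctnnb1, Lef1, Tcf7, Tcf7l1 and Tcf7l2. The rule found 66 of the 31099 probe sets on the array, which stood for 40 of 14218 named genes. The rule uses symbols and no measured value. The cells, isolated with enzymes and plated for 48 hours, spent 24 hours in fresh medium, in medium conditioned by skeletal myoblasts (the precursors of skeletal muscle fibres) or in medium conditioned by cardiac fibroblasts (the matrix-producing cells of the heart). For none of the 3 cultures do the labels name an allele, a transgene or an added agent, nor a fetal age, a number of animals or pooling. Each medium has 1 array, so a difference below carries neither an error nor a p-value and describes these arrays, whose number limits the precision. Both comparisons with fresh medium use the same fresh-medium array.

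Wnt proteins are secreted, lipid-modified ligands that bind Frizzled receptors, with Lrp5 or Lrp6 as co-receptors. In the canonical branch this binding halts the destruction of beta-catenin, which then drives target genes together with factors of the Tcf and Lef family. Secreted antagonists hold the signal back by binding the ligand, as Sfrp proteins, Frzb and Wif1 do, or by binding the co-receptor, as the classical Dickkopf proteins do. In the heart the pathway is known for its stage-dependent part in cardiac specification, and for its activity in valve formation, fibroblasts and repair after injury.

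The deposited values were read as log2 values centred on each probe set's median over the 3 arrays, and blank cells as 0. A value of 0 is therefore taken to mark the array in the middle, and a difference of 1 is 2-fold. For probe sets with fewer than 2 values, this reading of the blanks is an assumption. How strongly a gene was expressed cannot be read. Because the absolute level is gone, neither the presence of cardiomyocyte marker transcripts nor the absence of markers of other cells could be checked. A gene's value is the mean of its probe sets. The arrays' own yardstick was a set of 45 probe sets for control transcripts, which are normally added to each sample in equal amounts. Their largest difference in size was 0.66 between myoblast medium and fresh medium, 0.68 between fibroblast medium and fresh medium, and 1.02 between the conditioned media. In the same order, 5.47%, 12.8% and 5.81% of all genes had a larger difference, and 1, 4 and 4 of the 40 members. Added controls do not carry the variation between cultures, so a larger difference is no call on a gene.

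Of the 40 genes, 5 differed at least 2-fold between some pair of media, and they came from the antagonists (Frzb, Sfrp2, Wif1), the receptors (Fzd2) and the ligands (Wnt4). That is 12.5% of the members, beside 9.20% of all genes. With blanks read as 0, the typical member differed little. The median size of the difference between fibroblast medium and fresh medium was 0.06 over the members and 0.16 over all genes. Between myoblast medium and fresh medium it was 0.09 for both. These medians include the zeros put in for blanks. Of the members' 66 probe sets, 34 had values on 2 arrays, 21 on 1 and 11 on 0, and 5 genes had no value on any array. In bulk RNA such as this, fewer cells of a type and less RNA per cell cannot be told apart.

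**Figure D1:**
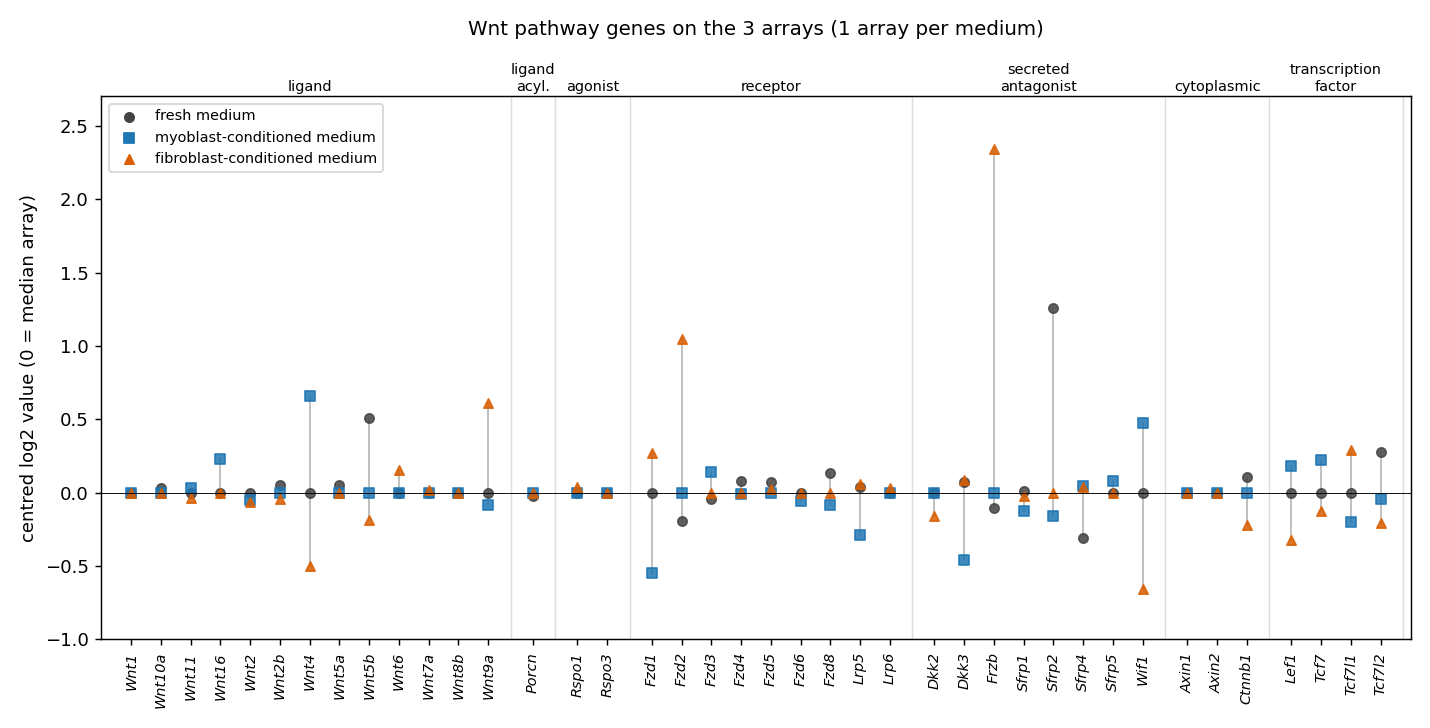
Centred log2 value (vertical axis, 0 is the median array) of each of the 40 Wnt pathway genes (horizontal axis, grouped by role), with 1 point per medium and a grey line over their range. Frzb in fibroblast medium, at 2.34, and Sfrp2 in fresh medium, at 1.26, lie farthest from 0, and most other genes stay close to it.

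RefSeq's promoter table for assembly GRCr8 held 29 of the 40 genes, each as a window from 250 bases before to 50 bases after the start of transcription. The windows of Frzb and Sfrp2, the members with the widest differences, are shown because these genes lay apart in opposite directions. Those of Axin2 and Tcf7 are shown because they were the only 2 of the 29 that held CTTTGAT, a core sequence that Tcf and Lef factors are known to bind, searched on both strands. The same letters were found in 3.63% of all 33469 windows of this length. The Frzb window lies on the minus strand at chr3:85772047-85772346, that of Sfrp2 on the plus strand at chr2:171387286-171387585, that of Axin2 on the plus strand at chr10:94398535-94398834, and that of Tcf7 on the minus strand at chr10:36954230-36954529. Each runs 5′ to 3′ along its gene, with CTTTGAT in capitals.
Frzb: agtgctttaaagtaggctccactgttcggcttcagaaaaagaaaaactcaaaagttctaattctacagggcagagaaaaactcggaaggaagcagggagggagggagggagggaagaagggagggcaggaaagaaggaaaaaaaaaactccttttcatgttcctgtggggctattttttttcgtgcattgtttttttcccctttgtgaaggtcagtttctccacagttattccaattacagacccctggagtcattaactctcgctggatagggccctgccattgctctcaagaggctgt
Sfrp2: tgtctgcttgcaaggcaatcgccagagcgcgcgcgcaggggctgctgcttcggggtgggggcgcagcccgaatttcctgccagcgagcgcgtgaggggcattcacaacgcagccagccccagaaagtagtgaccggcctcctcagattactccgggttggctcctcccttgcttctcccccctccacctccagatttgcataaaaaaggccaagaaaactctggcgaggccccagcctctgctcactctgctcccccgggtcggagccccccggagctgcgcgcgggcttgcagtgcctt
Axin2: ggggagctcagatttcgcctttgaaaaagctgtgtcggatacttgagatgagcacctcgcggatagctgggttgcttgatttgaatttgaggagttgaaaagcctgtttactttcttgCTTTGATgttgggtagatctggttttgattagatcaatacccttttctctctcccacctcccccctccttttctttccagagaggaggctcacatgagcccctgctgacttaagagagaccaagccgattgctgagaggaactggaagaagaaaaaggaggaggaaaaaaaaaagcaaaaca
Tcf7: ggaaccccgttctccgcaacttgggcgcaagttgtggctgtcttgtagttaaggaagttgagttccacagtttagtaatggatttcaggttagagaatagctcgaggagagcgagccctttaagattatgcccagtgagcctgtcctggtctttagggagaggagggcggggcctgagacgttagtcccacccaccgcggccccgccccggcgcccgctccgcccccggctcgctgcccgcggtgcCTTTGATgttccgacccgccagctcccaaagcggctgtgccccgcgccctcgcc
The motif begins 132 bases before the start in Axin2 and 4 bases before it in Tcf7. The Frzb window was poor in CG pairs, with 4, while that of Sfrp2 had 21, beside a median of 25 over the 29 members and 7 over all windows. A match of letters is a description of the sequence and not a binding site, and no peak or methylation value exists here to set beside it.

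The secreted antagonists showed the largest differences in the family, and they did not share a direction. Frzb, which encodes secreted frizzled-related protein 3, had centred values of -0.10 in fresh medium, 0.00 in myoblast medium and 2.34 in fibroblast medium. It stood high in fibroblast medium alone, by 2.44 over fresh medium (5.44-fold) and by 2.34 over myoblast medium. Both of its probe sets showed this, at 2.56 and 2.33 against fresh medium. The second had a value in fibroblast medium alone, and its blanks on the other arrays were read as 0. Of 14218 genes, 93, Frzb included, had a difference as high as 2.44. Sfrp2, a relative of Frzb that is also released by cells and binds Wnt, had the opposite arrangement. Its values were 1.26 in fresh medium, -0.16 in myoblast medium and 0.00 in fibroblast medium. Both conditioned media were thus low, by 1.42 (2.67-fold) for myoblast medium and by 1.26 (2.39-fold) for fibroblast medium. The probe sets of Sfrp2 lay at -1.53 and -1.30 for myoblast medium and at -1.31 and -1.21 for fibroblast medium. In the comparison of myoblast medium with fresh medium, 38 genes of the whole table, Sfrp2 included, had a difference as low. The conditioned media differed from each other by only 0.16 at Sfrp2.

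Wif1, which encodes Wnt inhibitory factor 1, separated the conditioned media. It had 0.00 in fresh medium, 0.47 in myoblast medium and -0.66 in fibroblast medium, on 1 probe set. The fresh-medium array lay between the others, and fibroblast medium was lower than myoblast medium by 1.13 (2.19-fold). That is close to the largest control transcript difference of 1.02 between these media. Neither difference from fresh medium reached 2-fold. Dkk3, an atypical Dickkopf protein whose action on Wnt is less settled than that of its relatives, had 0.07 in fresh medium, -0.46 in myoblast medium and 0.08 in fibroblast medium. Its 4 probe sets differed in size, at -1.11, -0.88, -0.13 and 0.00 for myoblast medium minus fresh medium. The one at 0.00 had no value on any array and was read as a tie. The gene's mean of -0.53 thus depends on which probe sets are used, and was -0.99 over those with values on 2 arrays. Sfrp4 was lower in fresh medium than in both conditioned media, by 0.36 and 0.35, mostly through 1 of its 2 probe sets. Sfrp1 had -0.13 for myoblast medium and -0.03 for fibroblast medium against fresh medium, and its 3 probe sets disagreed in sign in the latter. Sfrp5, at 0.08 and 0.00, and Dkk2, at 0.00 and -0.16, lay close to 0.

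**Figure D2:**
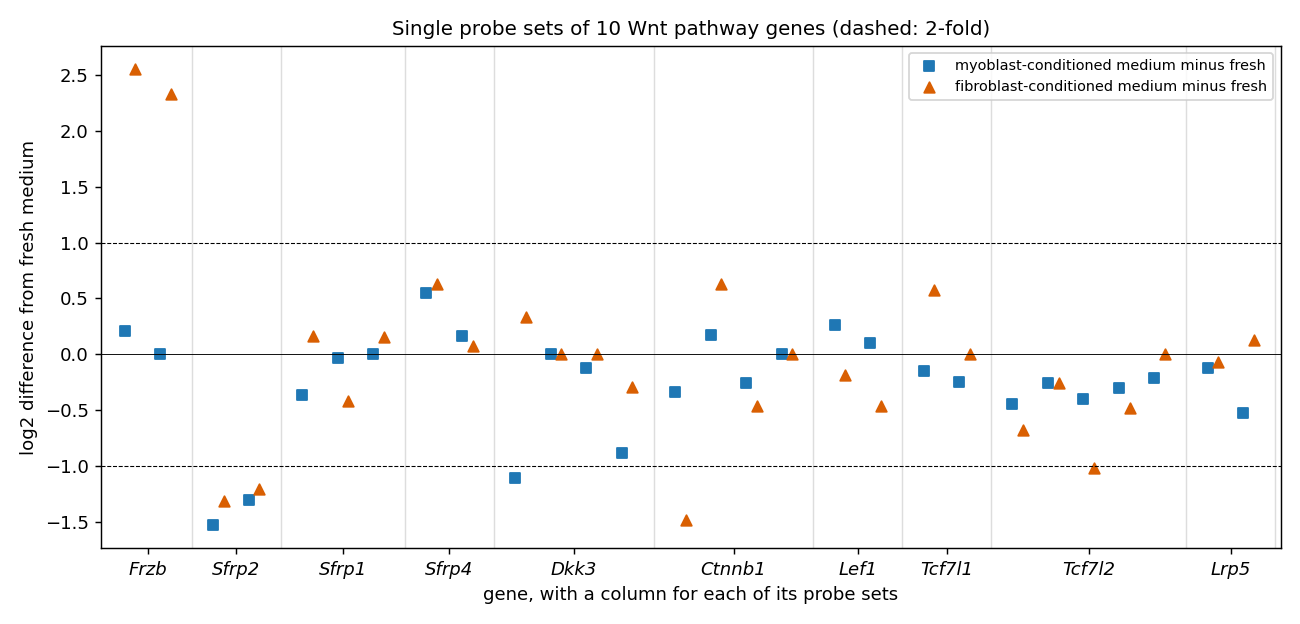
Log2 difference from fresh medium (vertical axis) of every single probe set of 10 Wnt pathway genes (horizontal axis), squares for myoblast medium and triangles for fibroblast medium, dashed lines at 2-fold. The probe sets of Frzb (2.56 and 2.33) and of Sfrp2 lie together, while those of Ctnnb1 spread from -1.48 to 0.63 in fibroblast medium.

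Among the receptors, Fzd2 was the only 1 of 9 genes past 2-fold. Fzd2, a Frizzled receptor known from non-canonical Wnt signalling, had -0.19 in fresh medium, 0.00 in myoblast medium and 1.05 in fibroblast medium. It was higher in fibroblast medium than in fresh medium by 1.24 (2.37-fold) and than in myoblast medium by 1.05, which is close to the largest control transcript difference of 1.02. Fzd1 had 0.00 in fresh medium, -0.55 in myoblast medium and 0.27 in fibroblast medium. Myoblast medium was thus low at Fzd1, by 0.55 against fresh medium and by 0.82 against fibroblast medium, without reaching 2-fold. The co-receptor gene Lrp5 also had its lowest value in myoblast medium, at -0.29, through 1 probe set at -0.53 and another at -0.12 against fresh medium. Lrp6, the second co-receptor, lay at 0.04 in fibroblast medium, and its blanks in fresh and myoblast medium were read as 0. The other Frizzled genes, Fzd3, Fzd4, Fzd5, Fzd6 and Fzd8, differed from fresh medium by between -0.22 and 0.18.

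The ligand genes showed small differences with a few exceptions. Wnt4, a ligand best known from kidney and gonad development, had 0.00 in fresh medium, 0.66 in myoblast medium and -0.50 in fibroblast medium. As for Wif1, the conditioned media lay on opposite sides of fresh medium, and fibroblast medium was lower than myoblast medium by 1.16 (2.23-fold). This too is close to the largest control transcript difference of 1.02. The difference of Wnt4 between myoblast medium and fresh medium, 0.656, was about the size of the largest control transcript difference, 0.658. Wnt5b, which signals mainly through non-canonical branches, had 0.51 in fresh medium, 0.00 in myoblast medium and -0.19 in fibroblast medium. Its value in fibroblast medium was lower than in fresh medium by 0.70, short of 2-fold. That is close to the largest control transcript difference of 0.68, which 12.8% of all genes passed. Wnt9a, known from endocardial cushion growth, had 0.00 in fresh medium, -0.09 in myoblast medium and 0.61 in fibroblast medium. Each of these 3 ligands rested on 1 probe set. Wnt16 had 0.23 in myoblast medium and Wnt6 had 0.15 in fibroblast medium, with the blanks on the other arrays read as 0. Wnt5a, the relative of Wnt5b, differed by only -0.06 in both conditioned media, and Wnt2, Wnt2b, Wnt7a, Wnt10a and Wnt11 differed from fresh medium by between -0.10 and 0.04. Wnt1 and Wnt8b had no value on any array and are read as ties. So did Rspo3, which encodes an R-spondin, an enhancer of Wnt signalling, while its relative Rspo1 reached 0.04 in fibroblast medium. Porcn, the enzyme that attaches the lipid to Wnt proteins, differed from fresh medium by 0.02 in both conditioned media.

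The genes downstream of the receptor did not differ 2-fold as means. Axin1 and Axin2, scaffold proteins of the complex that destroys beta-catenin, had no value on any array, on 1 probe set each. Axin2 is itself a classical target of the pathway, and it is the gene whose promoter window above holds CTTTGAT. Its blank cells mean only that the 3 arrays were read as tied there. Ctnnb1, which encodes beta-catenin, had 0.11 in fresh medium, 0.00 in myoblast medium and -0.22 in fibroblast medium. Its 4 probe sets did not agree on the direction in fibroblast medium, at -1.48, -0.46, 0.00 and 0.63 against fresh medium. The one at 0.00 had no value on any array, and the others differed in sign. No single direction can therefore be given for the transcript.

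Tcf7l2, a Tcf factor with 5 probe sets, had its highest value in fresh medium. It had 0.28 in fresh medium, -0.04 in myoblast medium and -0.21 in fibroblast medium. All 5 of its probe sets were below fresh medium in myoblast medium, and 4 of 5 in fibroblast medium with the last at 0.00, with means of -0.32 and -0.49. Lef1 had 0.00 in fresh medium, 0.18 in myoblast medium and -0.32 in fibroblast medium, and both of its probe sets placed fibroblast medium lowest. Tcf7, which holds the other motif match, had 0.22 in myoblast medium and -0.13 in fibroblast medium against 0.00 in fresh medium. Tcf7l1, known mainly as a repressor of Wnt targets, had the reverse order, with -0.20 in myoblast medium and 0.29 in fibroblast medium. None of these 4 genes passed the largest control transcript difference in any comparison.

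The counts by comparison lay near those of the whole table. In myoblast medium against fresh medium, 0 of the 40 genes were at least 2-fold higher and 1 (Sfrp2) was at least 2-fold lower, beside 1.35% of all genes higher and 0.844% lower. In fibroblast medium against fresh medium, 2 (Frzb and Fzd2) were at least 2-fold higher and 1 (Sfrp2) lower, beside 4.26% and 2.60% of all genes. Between the conditioned media, Frzb and Fzd2 were at least 2-fold higher and Wif1 and Wnt4 at least 2-fold lower in fibroblast medium, beside 3.94% and 2.12% of all genes. Taking both directions in the same order of comparisons, 1, 3 and 4 of the 40 genes were past 2-fold, beside 2.19%, 6.85% and 6.06% of all genes. The median difference was 0.00 in each comparison, over the members as over all genes.

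Other genes of the pathway were described through 5 lists that leave out the 40 members. Among 26 measured further receptors and surface regulators, 2 were at least 2-fold higher in fibroblast medium than in fresh medium and 0 lower, with a median of 0.00. They were Ptk7, a co-receptor of the planar polarity branch, at 1.31, and Reck, a membrane-anchored regulator of proteases and Wnt7 signalling, at 1.02. Among 36 cytoplasmic genes, 2 were higher and 1 lower, with a median of -0.04. In either direction these are 7.69% of the first list and 8.33% of the second, beside 6.85% of all genes. Nkd2, which binds Dishevelled and restrains Wnt signalling, was higher by 2.18 on 1 probe set. It had a value in fibroblast medium alone, and its blanks on both other arrays were read as 0. Dact2, another Dishevelled-binding protein, was higher by 1.27. Ccdc88c, which encodes the Dishevelled-associated protein Daple, was at -2.08. In myoblast medium against fresh medium, 0 genes of either list reached 2-fold, beside 2.19% of all genes. The most extreme values were 0.49 for Apcdd1 and -0.54 for Lgr6 in the first list. In the second they were 0.38 for Dact2 and -0.44 for Apc2.

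Of 20 nuclear cofactors, Tle1, a corepressor of the Groucho family, was the only one past 2-fold. It had -0.96 in fresh medium, 0.15 in myoblast medium and 0.00 in fibroblast medium. Tle1 was thus low in fresh medium, by 1.10 against myoblast medium and by 0.96 against fibroblast medium. In myoblast medium against fresh medium that is 5.0% of the list past 2-fold, beside 2.19% of all genes. Of 29 genes of the calcium, planar polarity and NFAT branch, fibroblast medium against fresh medium had 1 past 2-fold in each direction. Between the conditioned media 1 was higher in fibroblast medium and 0 lower. In either direction these are 6.9% and 3.45% of the list, beside 6.85% and 6.06% of all genes. The gene below fresh medium was Camk2a, a subunit gene of a calcium-dependent kinase, at -1.07 as the mean of 4 probe sets that ranged from -2.24 to 0.00. The medians of both lists lay between -0.03 and 0.08 in the 3 comparisons.

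The list of known beta-catenin targets held the largest differences. Many of its genes also answer to other signals, so it is no direct readout of Wnt activity. In fibroblast medium against fresh medium, 8 of its 36 measured genes were at least 2-fold higher and 1 lower. Over all genes, 4.26% were higher and 2.60% lower. The list's median was 0.32, beside 0.00 over all genes, with 25 of its genes above 0 and 9 below. Ccn5 and Ccn4, matricellular protein genes first described as Wnt-induced, were at 4.15 and 1.53. The activin-binding protein gene Fst was at 3.36, the cell cycle inhibitor gene Cdkn2a at 2.21, the hyaluronan receptor gene Cd44 at 1.89, the cyclin gene Ccnd1 at 1.73, Bmp4 at 1.49 and the growth regulator Myc at 1.20. Sox17, which also belongs to the endothelial markers, was the gene at least 2-fold lower, at -1.29, with its 3 probe sets spread from -3.50 to 0.00. In myoblast medium, 2 of 36 were higher and 0 lower, beside 1.35% and 0.844% of all genes, with a list median of 0.07. The 2 higher genes were the drug efflux pump gene Abcb1a at 3.16 and Myc at 1.80. Between the conditioned media, 7 were higher and 2 lower in fibroblast medium, beside 3.94% and 2.12% of all genes. The higher genes included Jun at 1.33. The lower genes were Abcb1a at -2.76 and Bambi, a decoy receptor for TGF-beta-type ligands, at -1.05. The difference of Bambi is close in size to the largest control transcript difference of 1.02 between these media.

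**Figure D3:**
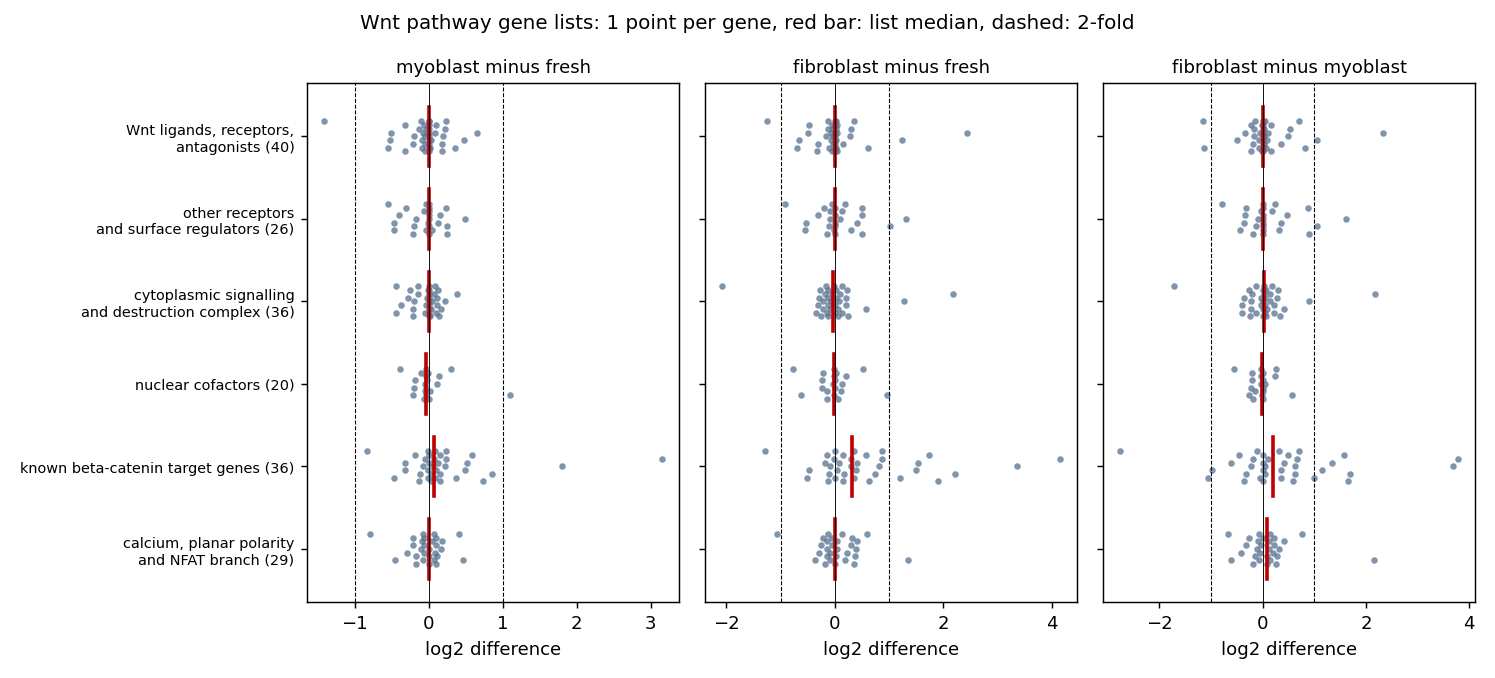
Log2 differences (horizontal axis) of the 40 Wnt pathway genes and of the 5 further pathway lists, 1 point per gene, for each pair of media; red bars are list medians and dashed lines 2-fold. The beta-catenin target list has the widest spread, up to 4.15 for Ccn5 in fibroblast medium minus fresh medium, around a median of 0.32.

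Markers of cell types also differed between the media. In fibroblast medium against fresh medium, where Frzb and Fzd2 were high, 4.26% of all genes were at least 2-fold higher and 2.60% lower. The macrophage and leukocyte list had 14 of 18 genes at least 2-fold higher (median 1.88). The endothelial list had 10 of 16 at least 2-fold lower (median -1.42). The mean centred value of the macrophage list was -0.06 in fresh medium, -0.42 in myoblast medium and 2.24 in fibroblast medium, and that of the endothelial list 0.55, -0.02 and -1.28. Of 18 cardiac fibroblast markers, 4 were at least 2-fold higher and 3 lower, with mean centred values of 0.13, -0.11 and 0.53 in fresh, myoblast and fibroblast medium. Their highest differences were Mfap5 at 3.88, Lox at 2.89 and Fbln2 at 1.81. Of 13 smooth muscle and myofibroblast markers, 6 were higher and 0 lower, with mean centred values of -0.46, -0.06 and 0.60. Of 21 cardiomyocyte markers, 1 was higher and 5 lower, with mean centred values of 0.07, -0.01 and -0.45. The part of these cell types in the results for Frzb and Fzd2 was not tested.

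The lowest fibroblast markers, like Sfrp2, had their highest value in fresh medium. Islr had 1.83 in fresh medium, -0.30 in myoblast medium and 0.00 in fibroblast medium. Pdgfra, a receptor typical of fibroblasts and their precursors, had 1.42, 0.00 and -0.06 on the same arrays, and the matrix gene Fbln1 had 1.03, 0.00 and -1.04. Unlike at Sfrp2, the conditioned media thus lay apart at Fbln1, with fibroblast medium minus myoblast medium at -1.04. That is close in size to the largest control transcript difference of 1.02 between these media. In myoblast medium against fresh medium, these 3 were the fibroblast markers past 2-fold, at -2.13, -1.42 and -1.03. Over all genes, 0.844% were at least 2-fold lower. The collagen genes Col1a1 and Col1a2 were at -0.04 and -0.09. The list's median was -0.08, with 6 of 18 genes above 0, and Lox and Ddr2 were at 0.84 and 0.69. In the same comparison the endothelial list had 4 of 16 genes past 2-fold, each of them lower, beside 0.844% of all genes. The part of fibroblasts and endothelial cells in the result for Sfrp2 was not tested. Among 11 epicardial and mesothelial markers, Krt19 had 0.00 in fresh medium, 1.34 in myoblast medium and -1.53 in fibroblast medium, which is the order seen for Wnt4 and Wif1. Others of that list had another order, such as Krt18 at -1.17, 0.00 and 2.22. In fibroblast medium against myoblast medium, 3 genes of the list were at least 2-fold higher and 1 lower. Over all genes these shares were 3.94% and 2.12%. The list's mean centred values were -0.21, 0.09 and 0.42 in fresh, myoblast and fibroblast medium. The part of these cells in the results for Wnt4 and Wif1 was not tested. No skeletal myoblast marker, of 11 measured, reached 2-fold in any comparison, beside 9.20% of all genes between some pair of media.

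**Figure D4:**
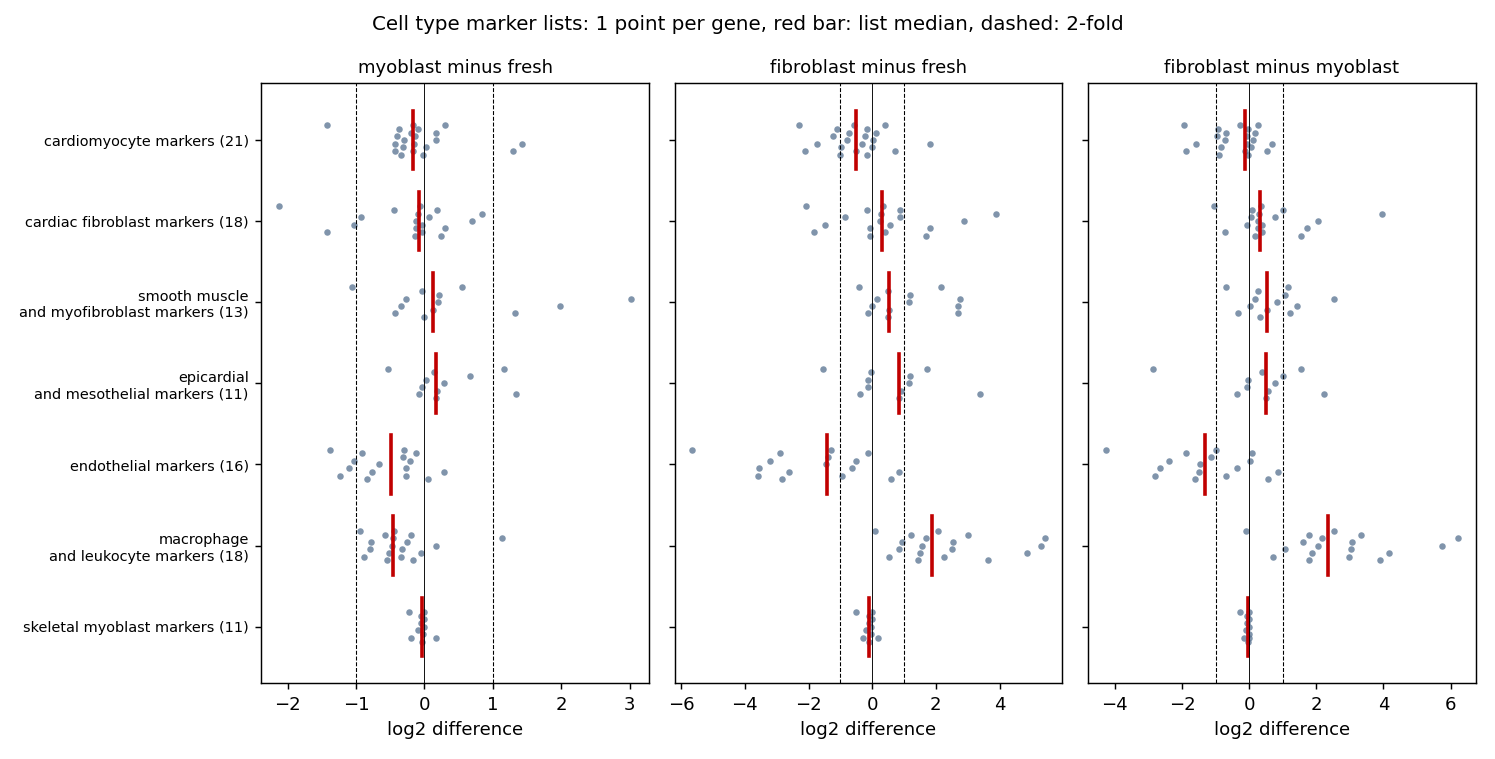
Log2 differences (horizontal axis) of 7 lists of cell type markers, 1 point per gene, for each pair of media; red bars are list medians and dashed lines 2-fold. Macrophage markers (median 1.88) and endothelial markers (median -1.42) lie on opposite sides of 0 in fibroblast medium minus fresh medium.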

How the data were processed

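Total RNA (Qiagen RNeasy mini) was biotin-labelled with an Affymetrix GeneChip 3' IVT Express kit, per the labels' protocols. The submitters' processing notes name RMA. The software that ran it is not given in the sources used here. On deposit the authors' values were read as log2 values, as RMA gives, centred on each probe set's median. Of 31099 probe sets, 17117 had 2 values, always of opposite sign, 8002 had 1, 5980 had 0, and 0 had 3. Where there were 2 values, the blank thus took the place of the middle array. Blanks were read as 0 throughout. For probe sets with 1 or 0 values this is an assumption, since it needs arrays that are tied. The log base is taken from RMA.

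Platform annotation, which is dated, gave 20832 probe sets a single symbol, 436 several and 9831 none. Symbols were updated through Entrez IDs with RefSeq's GRCr8 table, which matched 20764. Probe sets of a gene were averaged. Each pair of media was compared by subtracting log2 values, and differences of at least 2-fold were counted, with no test at 1 array per medium. Every gene the rule selects is named; of the pathway lists, members past 2-fold between any pair of media, except the higher gene of the calcium and planar polarity list, which is counted but otherwise not reported here, and elsewhere the highest and lowest; of marker lists, up to 3 in each direction. A few further markers (Col1a1, Col1a2, Ddr2, Krt18) were named after their values were seen. Members and lists were chosen with earlier results of these data known. The counting was tested on simulated data. Python 3.11.15, NumPy 2.4.6, pandas 2.3.3 and Matplotlib 3.10.9 were used.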

Additional observations from a re-analysis of the deposited data

How the results depend on the processing

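No paired analysis was possible because each medium has 1 array and the media share fewer than 2 replicate numbers, and no array could be left out. Summarising genes by the median probe set, dropping cross-hybridising ones or centring each array on the median of its nonblank values left every count of members past 2-fold as it was. These settings were weak checks. The median equals the mean for Frzb, Sfrp2, Fzd2, Wif1 and Wnt4, which have 1 or 2 probe sets each. No probe set of the members was of the cross-hybridising kind dropped. The centring moved differences between fibroblast medium and fresh medium by only 0.05. With only probe sets with values on 2 arrays, 24 of the 40 genes remained. Dkk3 then joined Frzb and Fzd2 as higher in fibroblast than in myoblast medium (3 genes, beside 6.21% of all genes so kept). Where each gene was read from its probe set of widest range, 2 genes were 2-fold lower in myoblast medium than in fresh medium (Dkk3 and Sfrp2, beside 1.14% of all genes) and 3 in fibroblast medium (Ctnnb1, Sfrp2 and Tcf7l2, beside 3.57%), and between the conditioned media 3 were higher in fibroblast medium (Dkk3 added) and 3 lower (Ctnnb1 added), beside 5.12% and 2.93%. That setting picks the most extreme probe set by construction. It took Ctnnb1 from -0.33 to -1.48 in fibroblast medium, the only one of the members' differences to move by more than the control transcripts did. A 1.5-fold threshold gave 1 gene higher in myoblast medium (Wnt4, beside 3.77% of all genes), 3 higher in fibroblast medium than in fresh medium (Wnt9a added, beside 9.09%), 3 lower (Sfrp2, Wif1 and Wnt5b, beside 6.97%) and 4 higher in fibroblast than in myoblast medium (Fzd1 and Wnt9a added, beside 8.34%). A 3-fold threshold left 1 gene, Frzb, higher in fibroblast medium than in fresh medium (beside 1.84% of all genes) and than in myoblast medium (beside 1.79%). It left 0 lower in any of the 3 comparisons. Signal over background is unknown, since centring removes the level.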
